A study of Mus musculus with 2 samples.

Results

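Voltage-gated sodium channels were examined in single cells of mouse lumbar dorsal root ganglia (DRGs), the ganglia that hold the cell bodies of somatosensory neurons. The 9 genes described here are Scn1a, Scn3a, Scn7a, Scn8a, Scn9a, Scn10a and Scn11a, which encode pore-forming alpha subunits, and Scn2b and Scn3b, which encode beta subunits. They were chosen by gene symbol from the 32285 genes of the files. All 9 passed the filter on low counts, Scn1a only through its counts in neurons. The 2 samples, replicates 1 and 2, are one group: L4 and L5 DRGs of naive, uninjured female C57BL/6 mice of 3 months, with no treatment. The number of animals behind each sample is not given in the sources used here, so each p-value measures the spread between 2 dissociations. Comparisons were made between cell types, since there is no second condition.

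The alpha subunit forms the voltage sensor and the pore through which sodium enters during the upstroke of the action potential, and the beta subunits are single-pass membrane proteins that adjust gating and surface level. Among alpha subunits, the products of Scn10a and Scn11a resist tetrodotoxin and are known from small-diameter nociceptors. The product of Scn9a sets the threshold of nociceptors, those of Scn1a and Scn8a serve fast-firing myelinated neurons, and that of Scn3a is best known from embryonic neurons. Scn7a encodes an atypical member of the family that is linked to sodium sensing rather than to the action potential, and the study used it to mark Schwann cells that do not form myelin.

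The files held 119101743 unique molecular identifiers (UMIs, 1 per captured transcript) in replicate 1 and 128668771 in replicate 2, and 8829 and 8771 barcodes were called as cells with over 300 genes. The 2 libraries shared 135 of these barcodes. After filters, 14899 cells fell into 8 types named by markers that held none of the 9 genes: 6801 satellite glial cells (SGCs), 3284 myelinating and 1475 non-myelinating Schwann cells, 1296 fibroblasts, 729 mural cells, 527 neurons, 420 endothelial cells and 367 macrophages. The non-myelinating Schwann cells carried Cadm2, Chl1, Gfra3 and L1cam among their leading genes, and the 9 genes took no part in clustering or naming. Neurons fell into 2 clusters. Of the 527, 104 held more than 20000 UMIs, 53 in replicate 1 and 51 in replicate 2, and supplied most of the neuronal UMIs. The other 423 were shallow droplets with medians of 855 and 756 UMIs, in which free RNA of the suspension was estimated to make up 11.6% and 11.7% of UMIs, against 2.80% and 4.23% in the deep neurons.

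Several of the genes lie side by side. On mouse chromosome 2 (GRCm38, GENCODE M21), Scn3a lies at chr2:65457118-65567627, Scn1a at chr2:66270778-66440840, Scn9a at chr2:66480080-66634962 and Scn7a at chr2:66673425-66784914, all on the minus strand. Scn9a is 39.2 kb from Scn1a and 38.5 kb from Scn7a. On chromosome 9, Scn10a (chr9:119608456-119719322, minus strand) and Scn11a (chr9:119753759-119825456, minus strand) are separated by 34.4 kb with no annotated gene between them. Scn2b (chr9:45117782-45130070) and Scn3b (chr9:40269217-40291618) lie elsewhere on that chromosome on the plus strand, and Scn8a lies at chr15:100869858-101045938. An antisense gene, Gm13629, overlaps Scn9a with 2 exons on the opposite strand. The coding transcripts of Scn9a and Scn10a have 27 or 28 exons, whereas the longest of Scn2b and Scn3b have 5 and 7.

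The promoters of 2 pairs of neighbours are shown. The members of one pair, Scn10a and Scn11a, were found in the same cells. Those of the other, Scn7a and Scn9a, had their highest levels in different types. Neurons above 20000 UMIs nevertheless held both Scn7a and Scn9a in 53 of 53 cells of replicate 1 and 48 of 51 of replicate 2. Each promoter runs 5′ to 3′ on the gene's strand from 250 bases before the annotated start to 50 bases from it (RefSeq, GRCm38.p6), where 7 of the 9 genes had an entry. Capitals mark a match, on either strand, to one of 4 short motifs: the TATA box TATAAA, the RUNX core TGTGGT, the SOX core ACAAAG and the homeodomain core TAATTA, which occur in 13.6%, 16.8%, 18.7% and 5.29% of the 32851 promoters in the table.
Scn10a, chr9:119718983-119719282, minus strand: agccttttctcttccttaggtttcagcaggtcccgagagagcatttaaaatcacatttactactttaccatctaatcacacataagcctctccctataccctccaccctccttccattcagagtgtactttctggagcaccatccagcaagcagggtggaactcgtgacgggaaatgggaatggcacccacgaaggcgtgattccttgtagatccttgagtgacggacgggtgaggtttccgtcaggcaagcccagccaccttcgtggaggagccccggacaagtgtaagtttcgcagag
Scn11a, chr9:119825407-119825706, minus strand: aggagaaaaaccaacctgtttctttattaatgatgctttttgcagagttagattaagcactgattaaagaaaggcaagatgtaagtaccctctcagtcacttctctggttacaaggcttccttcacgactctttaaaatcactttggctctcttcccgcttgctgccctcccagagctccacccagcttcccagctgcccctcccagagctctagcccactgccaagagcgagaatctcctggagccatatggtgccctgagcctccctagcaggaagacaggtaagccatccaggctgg
Scn7a, chr2:66784861-66785160, minus strand: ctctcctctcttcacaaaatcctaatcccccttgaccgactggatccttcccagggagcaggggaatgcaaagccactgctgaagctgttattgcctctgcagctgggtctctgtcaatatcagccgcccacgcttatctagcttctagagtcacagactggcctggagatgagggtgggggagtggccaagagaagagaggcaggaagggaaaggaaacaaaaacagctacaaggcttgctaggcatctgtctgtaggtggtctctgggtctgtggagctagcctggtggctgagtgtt
Scn9a, chr2:66634913-66635212, minus strand: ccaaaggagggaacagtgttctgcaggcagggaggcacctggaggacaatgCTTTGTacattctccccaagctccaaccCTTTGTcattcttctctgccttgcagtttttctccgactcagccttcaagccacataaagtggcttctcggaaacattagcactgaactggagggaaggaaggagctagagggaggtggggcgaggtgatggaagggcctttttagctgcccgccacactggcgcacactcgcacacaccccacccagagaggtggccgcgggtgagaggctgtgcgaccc
Only the Scn9a window among these 4 held a match, with the SOX core at 2 places on the opposite strand, at bases -199 to -194 and -171 to -166 from the start. Such a match is a run of letters, not a shown binding site. Among the other members, a RUNX core stood in the Scn2b window and a SOX core in 1 of the 2 windows of Scn8a. The GC content was 51.7% for Scn10a, 50.3% for Scn11a, 54.0% for Scn7a and 57.3% for Scn9a, near the median of 52.7% over all promoters. It was 70.0% for the first Scn8a window and 38.3% for Scn2b.

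Neurons carried all 9 genes. For each type and sample, UMIs were summed over cells, and the level of a gene (CPM) is its part of that sum per 1e6 UMIs after TMM scaling. Scn9a stood at 506 CPM in replicate 1 and 487 in replicate 2 of the neurons. Scn10a stood at 214 and 279 CPM, and Scn11a at 157 and 199.6 CPM. In both samples these 3 genes were at or below 2.78 CPM in every other type, except for Scn9a in non-myelinating Schwann cells. Scn1a reached 43.4 and 58.1 CPM in neurons and no more than 0.671 CPM elsewhere.

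**Figure D1:**
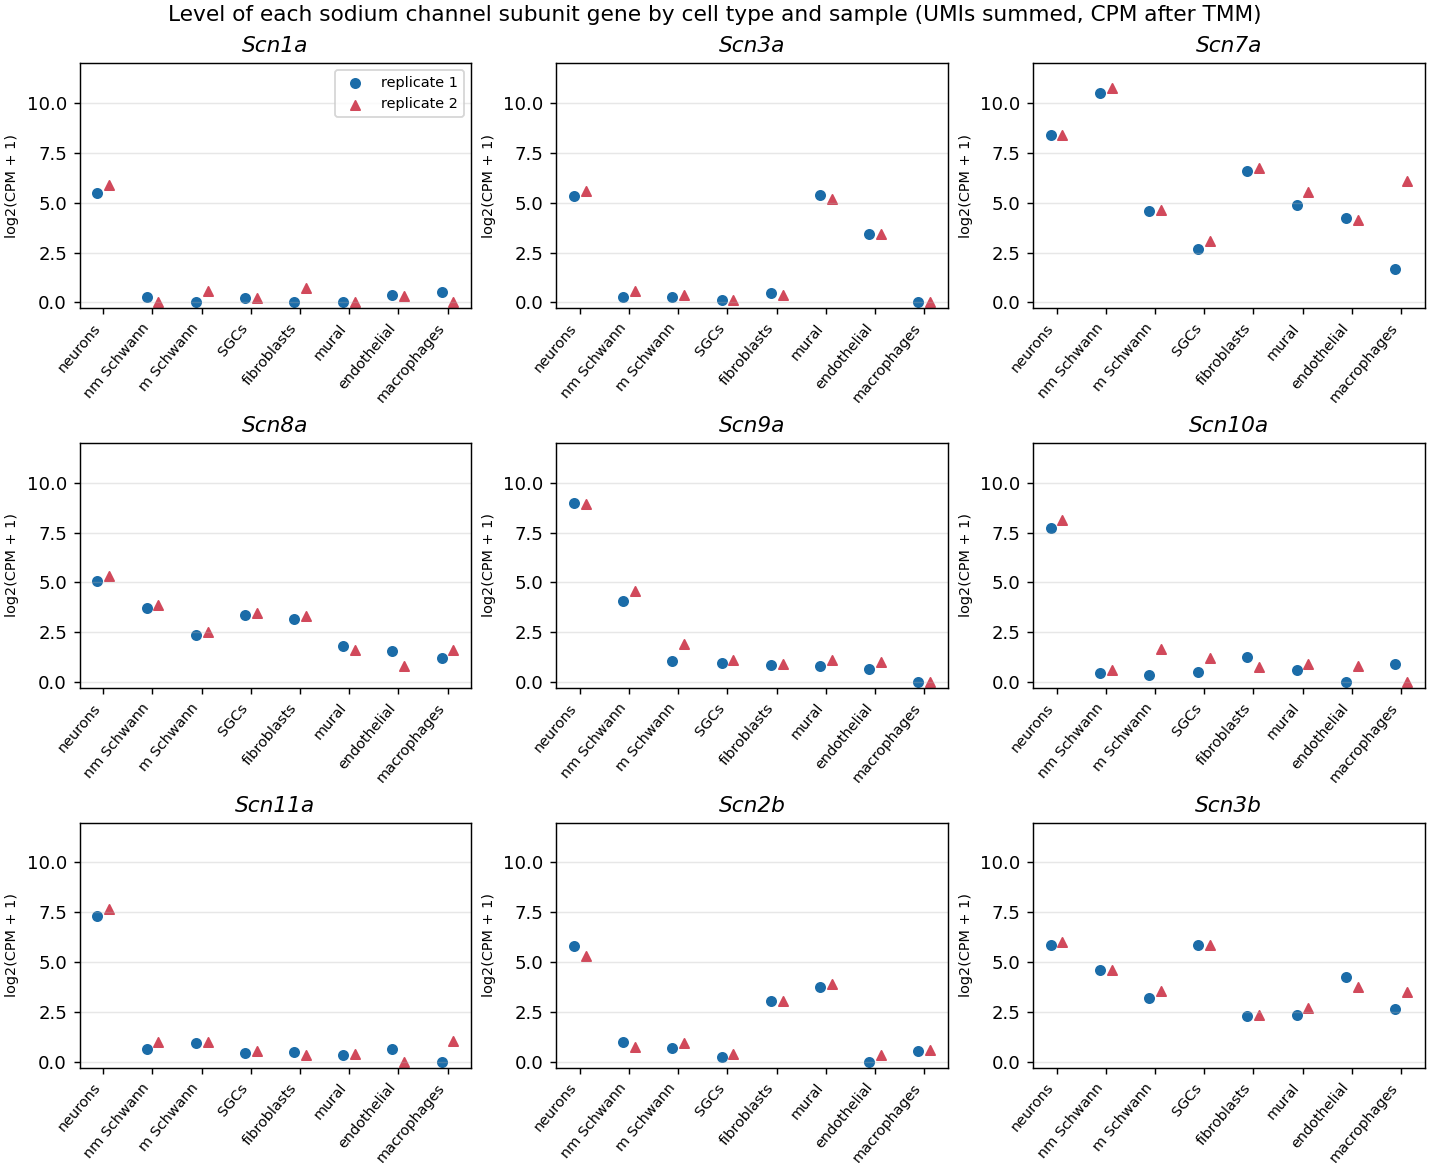
Level of each of the 9 genes in the 8 cell types, as log2(CPM + 1) on the y axis after TMM scaling, with 1 point per sample (circle for replicate 1, triangle for replicate 2). Neurons hold the highest points of Scn1a, Scn8a, Scn9a, Scn10a, Scn11a and Scn2b, non-myelinating (nm) Schwann cells those of Scn7a, and mural cells and SGCs come close to neurons for Scn3a and Scn3b.

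Against the mean of the other 7 types, 9 of 9 genes were higher in neurons in edgeR's quasi-likelihood test, where 36.2% of the 17891 genes tested were called higher and 32.5% lower. Scn1a entered the test only through neurons, with 278 and 353 UMIs there and at most 9 in any other type of either sample. Its passing of the filter and its call thus rest on the same counts. The median of the 9 log2 fold changes was 6.32, and that of all genes tested was -0.02. The difference was 8.59 ± 0.13 (log2, SE) for Scn11a, with an adjusted p of 3.42e-19, and 8.49 ± 0.21 for Scn10a, with an adjusted p of 1.63e-16. It was smallest for Scn3b at 2.36 ± 0.11 (adjusted p = 9.07e-13), which came to 1.77 with the UMI cutoff on neurons and 1.16 with only neurons at or below 20000 UMIs, then Scn7a at 2.85 ± 0.23 (adjusted p = 4.74e-09) and Scn8a at 3.07 ± 0.13 (adjusted p = 4.19e-13). Scn2b was higher by 5.50 ± 0.17 (adjusted p = 5.25e-15). These sizes depend on how the low counts of the other types are treated, and with the estimated free RNA subtracted they came to 13.56 for Scn10a, 13.01 for Scn11a and 12.76 for Scn9a. For 3 genes a type was at 0 UMIs in both samples, so their fitted change depends on the prior count: mural cells for Scn1a, and macrophages for Scn3a and Scn9a. With those types set to 3 UMIs over both samples, neurons were at least 7.84 above the mean of the others for Scn1a, 5.58 for Scn3a and 8.43 for Scn9a (log2 of CPM without TMM). By the same floor, Scn9a was at least 853-fold higher in neurons than in macrophages and at least 126-fold higher than mural cells for Scn1a.

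**Figure D2:**
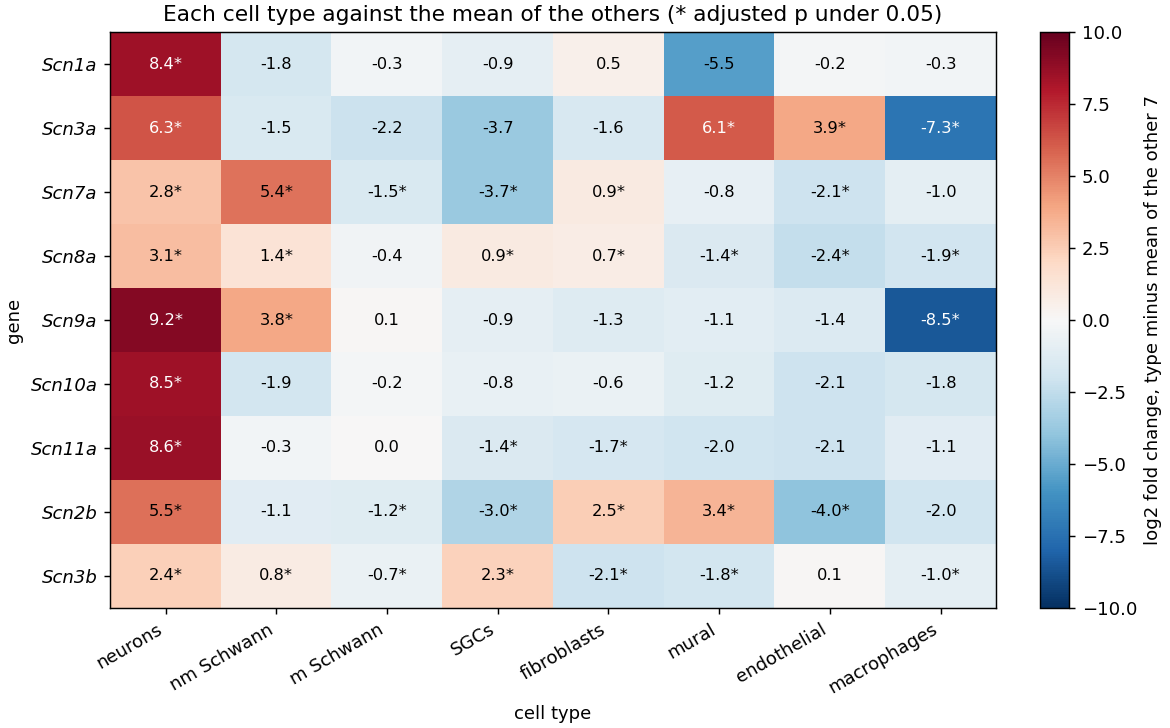
Log2 fold change of each gene (rows) in each cell type (columns) relative to the mean over the other 7, where an asterisk marks an adjusted p under 0.05. Every cell of the neuron column carries an asterisk and a positive value, from 2.4 for Scn3b upward, whereas macrophages and myelinating (m) Schwann cells have no positive call. Values of genes with 0 UMIs in a type depend on the prior count.

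Empty droplets were compared with the types, since free RNA gives every droplet some UMIs. Expected from the share of free RNA and the empty droplets, a non-neuronal type would hold between 0.557 and 2.09 CPM of Scn10a. All 7 non-neuronal types were within 3-fold of that expectation in both samples for Scn10a, Scn11a and Scn1a, and 6 of 7 for Scn9a, 5 of 7 for Scn3a and 5 of 7 for Scn2b. No type was within it in both samples for Scn8a, and 1 of 7 was for Scn7a and for Scn3b. Some types were within it in 1 sample only. Scn8a stood at 2.17 times the expectation in endothelial cells of replicate 2 and 2.45 times in macrophages of replicate 1, on 3 UMIs each. In replicate 1, Scn7a stood at 0.367 times in macrophages, and Scn3b at 2.24 times in mural cells and 2.21 times in macrophages. In neurons the level was at least 30.3 times the expectation for each of the 9 genes. Within that allowance, low expression and free RNA cannot be told apart, and Scn1a reached 2.36 times the expectation in fibroblasts of replicate 2.

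Single neurons varied widely in the tetrodotoxin-resistant channels, and nearly all held Scn9a. Among the deep neurons, Scn9a had UMIs in 53 of 53 cells of replicate 1 and 49 of 51 of replicate 2, with a lowest, median and highest level of 249, 519 and 1485 CPM in replicate 1 and of 0, 502 and 1264 CPM in replicate 2. The 2 cells without Scn9a held 22951 and 25472 UMIs and sat in a cluster led by Prex2 with SGC markers. Scn10a ranged from 0 over a median of 9.44 to 1141 CPM in replicate 1, and from 0 over a median of 0 to 2378 CPM in replicate 2. In replicate 2 the highest cell held 322 of its 1585 UMIs. Scn11a had medians of 92.0 and 71.5 CPM and maxima of 507 and 1610 CPM. Scn7a was found in 53 of 53 and 50 of 51 deep neurons, at medians of 338 and 266 CPM.

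To put the cells at 1 depth, each deep neuron was thinned to 20000 UMIs. Because 3′ libraries count the transcript end, a lower share of 1 gene than of another does not show expression in fewer neurons. A UMI of Scn9a was then found in 100% of the cells in replicate 1 (53 of 53, exact binomial 95% interval 93.3 to 100) and 96.1% in replicate 2 (49 of 51, 86.5 to 99.5). Scn7a was found in 88.7% and 92.2%, Scn3b in 64.2% and 74.5%, and Scn11a in 62.3% and 58.8%. Scn1a was found in 50.9% and 47.1%, Scn10a in 47.2% and 37.3%, Scn2b in 49.1% and 43.1%, Scn3a in 41.5% and 47.1%, and Scn8a in 39.6% and 45.1%. The intervals of the 2 samples overlap for each gene. A thinned neuron held UMIs of between 3 and 9 of the genes in replicate 1, with a median of 5, and between 2 and 8 in replicate 2, with a median of 6. These intervals cover counting error over cells only.

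Scn10a and Scn11a were found in the same neurons. At 20000 UMIs, 25 of the 25 cells with Scn10a in replicate 1 also held Scn11a, as did 18 of 19 in replicate 2. Scn11a was found without Scn10a in 8 and 12 cells, and 20 cells in each sample held neither. Scn10a and Scn1a were mostly found in different cells at this depth. Of the cells with Scn10a, 5 of 25 and 3 of 19 also held Scn1a, whereas 22 and 21 cells held Scn1a alone and 6 and 11 held neither. Without thinning, 12 of the 29 cells with Scn10a in replicate 1 and 11 of 23 in replicate 2 also held Scn1a. Cells are not replicates, so these counts are a description of 2 samples.

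**Figure D3:**
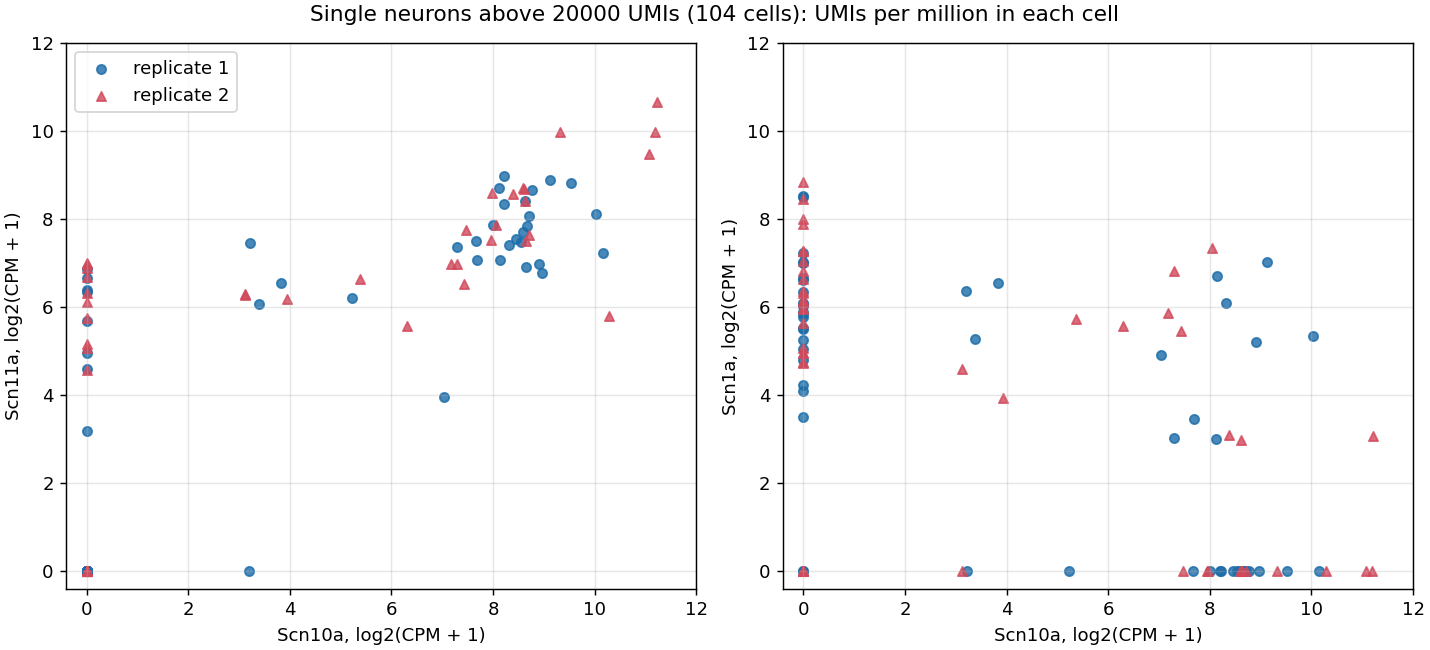
Each point is one of 104 neurons above 20000 UMIs, with Scn10a on the x axis and Scn11a (left) or Scn1a (right) on the y axis, as log2(CPM + 1) of that cell (circle for replicate 1, triangle for replicate 2). Of the cells with Scn10a, 28 of 29 in replicate 1 and 23 of 23 in replicate 2 lie above 0 for Scn11a, and 12 and 11 for Scn1a.

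The deep neurons were clustered without the 9 genes or their partners into 8 groups of 7 to 17 cells, called here by their leading gene. No cluster had 10 cells in each sample, so levels are given as plain CPM (no TMM) with no test. Only the Tafa4 cluster could be named from subtype markers, as C-LTMR-like (low-threshold mechanoreceptors with unmyelinated axons), with Tafa4, P2ry1, Th, Gfra2 and Slc17a8 among its leading genes. Scn10a was high in 3 clusters. In the Tmem233 cluster, which also carried Mrgprd and Lpar3 of non-peptidergic nociceptors, it stood at 417 and 1176 CPM in replicates 1 and 2. In the Pde1a cluster, where Calca and Adcyap1 of peptidergic neurons were leading genes, it stood at 373 and 340 CPM, and in the Tafa4 cluster at 360 and 194 CPM. In the other 5 it was at most 26.9 CPM. Scn11a followed, at 238 and 729 CPM in the Tmem233 cluster, 278 and 307 in the Pde1a cluster and 226 and 155 in the Tafa4 cluster. It stood at 175 and 67.5 CPM in the Prex2 cluster and at 66.4 and 83.9 CPM in the Klhl1 cluster, where Scn10a was at 26.9 and 4.54 CPM. The Calb1 cluster, of 12 cells, held 0 UMIs of either gene in both samples.

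Scn1a, the channel of fast-firing neurons, was distributed otherwise. It stood at 169 and 156 CPM in the Trpm8 cluster, named for the cold receptor, at 62.3 and 195 CPM in the Calb1 cluster, at 94.7 and 104 CPM in the Tafa4 cluster and at 86.7 and 125 CPM in the Rgs6 cluster. In the Tmem233 and Pde1a clusters it did not exceed 4.61 CPM. The Klhl1 cluster, at 18.4 and 29.5 CPM, and the Prex2 cluster, at 0 and 27.6 CPM, were low in both Scn1a and Scn10a, and the Tafa4 cluster held both. Scn8a was also high in the Calb1 cluster (62.3 and 102 CPM), the Tafa4 cluster (112 and 65.7 CPM) and the Trpm8 cluster (85.8 and 60.5 CPM), against 11.5 and 4.32 CPM in the Pde1a cluster. In the Tmem233 cluster the 2 samples were far apart for Scn8a, at 3.80 and 44.9 CPM. Single cells weighed on these values. One cell of 199032 UMIs held 91 of the 117 UMIs of Scn1a in the Calb1 cluster of replicate 2, and without it the levels there were 64.9 CPM for Scn1a, 39.9 CPM for Scn8a and 32.4 CPM for Scn7a. One cell of 142678 UMIs weighed on the Trpm8 cluster of replicate 1. It held 52 of the 75 UMIs of Scn1a and 29 of the 38 UMIs of Scn8a. Without that cell Scn1a stood at 76.7 CPM and Scn8a at 29.999 CPM. In replicate 2 of the Trpm8 cluster, Scn8a stood at 54.4 CPM without its highest cell. Without its highest cell, Scn10a in the Klhl1 cluster of replicate 1 stood at 1.62 CPM. The 7 cells of the Tmem233 cluster in replicate 2 ran from 250 to 2378 CPM of Scn10a, and the level there was 967 CPM without the highest cell.

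Scn3a was nearly missing from the Tmem233 cluster, at 0.759 and 2.19 CPM, and highest in the Klhl1 cluster, at 102 and 113 CPM. Scn7a was highest in the Trpm8 cluster, at 818 and 958 CPM, then in the Rgs6 cluster, at 633 and 752 CPM, and lowest in the Calb1 cluster, at 25.3 and 105 CPM. Scn9a had the smallest ratio between its highest and lowest value over the clusters, from 365 CPM in the Pde1a cluster to 842 CPM in the Tafa4 cluster. Of the beta subunits, Scn2b was lowest in the Pde1a cluster (24.6 and 2.16 CPM) and reached 115 and 90.7 CPM in the Trpm8 cluster. Scn3b ranged from 29.9 CPM in the Rgs6 cluster to 113 CPM in the Tafa4 cluster. The Prex2 cluster had 1 cell in replicate 1 and 13 in replicate 2, and the Rgs6 cluster 10 and 2, so a value of either rests mainly on 1 sample. Fabp7, a marker of SGCs, ranged over the clusters, both samples together, from 61.9 CPM in the Trpm8 cluster to 1950 CPM in the Prex2 cluster, and the part of such RNA in these levels was not tested.

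**Figure D4:**
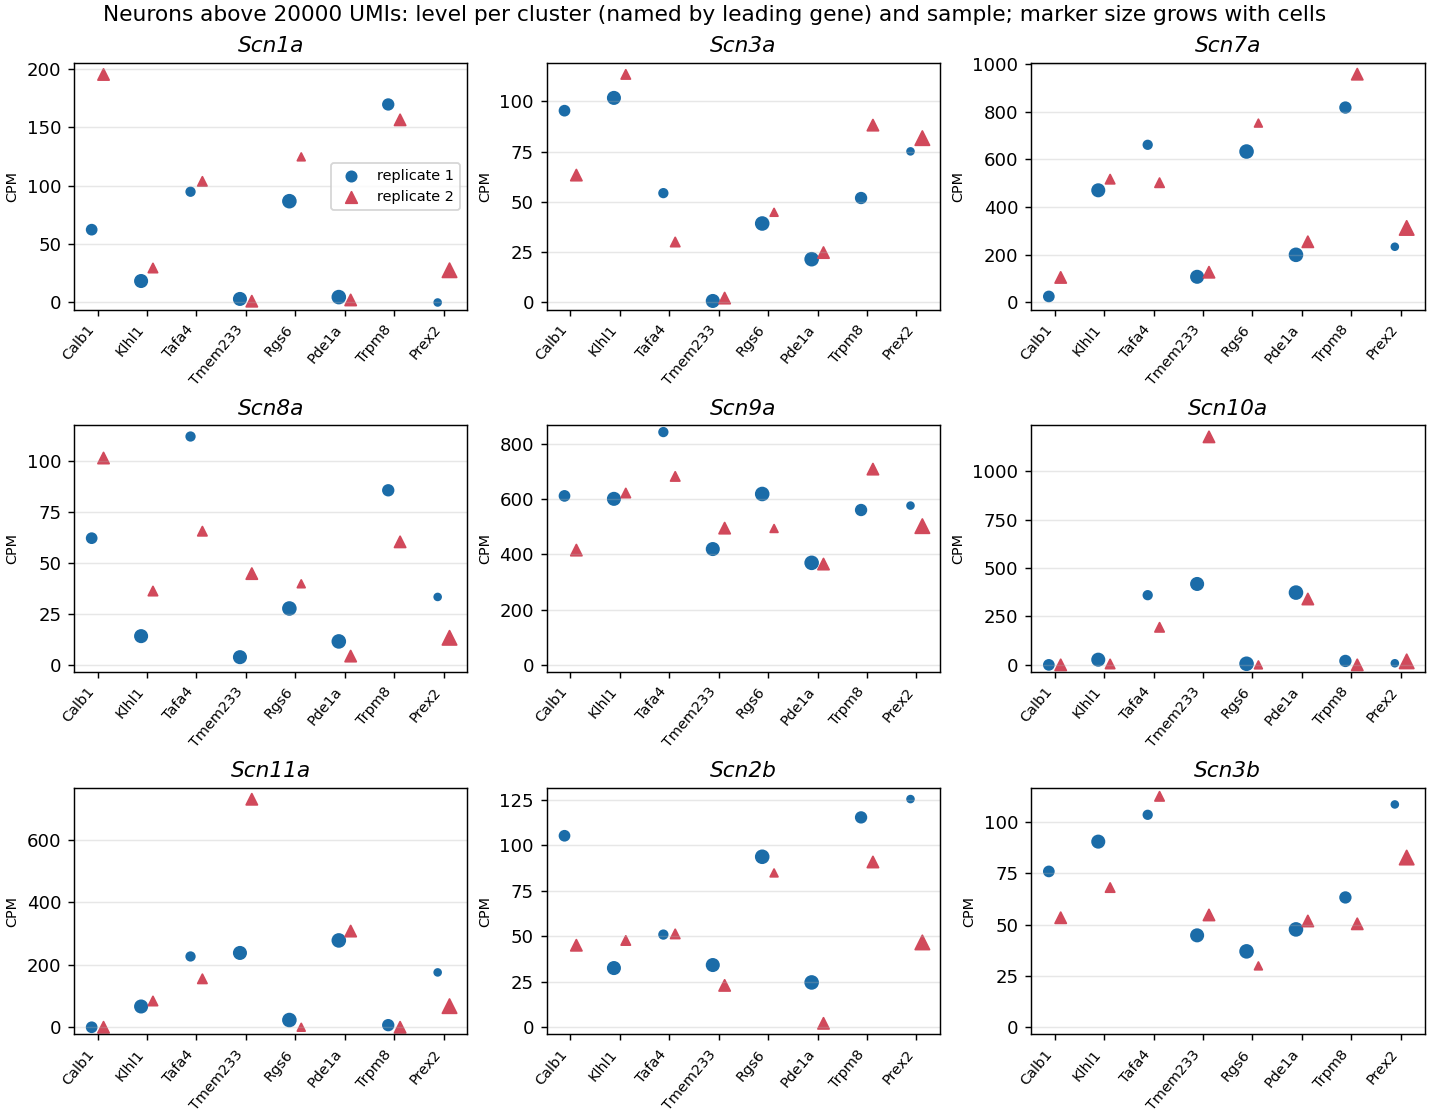
Level (CPM without TMM, y axis) of each gene in the 8 clusters of neurons above 20000 UMIs, named by leading gene on the x axis, with a circle for replicate 1 and a triangle for replicate 2 and a marker size that grows with the number of cells. Scn10a and Scn11a are high in the Tmem233, Pde1a and Tafa4 clusters, Scn1a in the Calb1, Tafa4, Rgs6 and Trpm8 clusters, and Scn9a is above 360 CPM in all 8.

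Deep and shallow neurons were then compared as separate profiles, since an upper cutoff on UMIs would remove the deep ones. Only Scn3b differed, at 60.0 and 66.2 CPM above 20000 UMIs against 30.2 and 20.7 CPM at or below it (log2 difference 1.25 ± 0.31, adjusted p = 0.0316), where 3.70% of 17884 genes were called in either direction. The shallow levels rest on 14 and 6 UMIs of this gene in replicates 1 and 2. With the free RNA of empty droplets subtracted, the difference was 1.36 ± 0.37 and no longer passed (adjusted p = 0.0743). The other 8 genes had log2 differences between -0.18 and 0.72 that did not pass. Shallow neurons of the 2 samples were themselves far apart for some genes. Examples are Scn3a at 8.62 and 55.1 CPM (4 and 16 UMIs) and Scn11a at 233 and 51.7 CPM (108 and 15 UMIs).

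Non-myelinating Schwann cells ensheath the unmyelinated axons. Scn7a was the gene that set them apart here, at 1447 CPM (7357 UMIs) in replicate 1 and 1711 CPM (10140 UMIs) in replicate 2. Neurons stood at 337 CPM in both samples and fibroblasts at 94.7 and 107 CPM, and every other type was at or below 67.9 CPM. Against the mean of the other types, Scn7a was higher by 5.39 ± 0.21 on the log2 scale (adjusted p = 5.72e-13), one of 4 genes of the 9 that were called higher, where 20.0% of all genes were called higher and 18.1% lower. Against neurons alone the difference was 2.23 ± 0.35 (adjusted p = 2.08e-05), with 29.6% of genes called higher in the Schwann cells. Myelinating Schwann cells, their nearest relatives, held 23.3 and 24.1 CPM, a log2 difference of -6.06 ± 0.43 from the non-myelinating cells (adjusted p = 2.38e-09). The 5 highest myelinating cells held 111 of the 234 UMIs in replicate 1 and 138 of the 260 in replicate 2.

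At 5000 UMIs per cell, Scn7a was found in 70.8% of non-myelinating Schwann cells in replicate 1 (329 of 465 cells, exact binomial 95% interval 66.4 to 74.9) and in 79.1% in replicate 2 (424 of 536, 75.4 to 82.5). The intervals of the 2 samples do not overlap, so the share differed between them beyond counting error over cells. Without thinning the shares were 79.6% and 85.1%. In SGCs, which served as the background, the thinned shares were 2.00% and 2.42%, at medians of 14928 and 15955 UMIs before thinning, against medians of 7206 and 7390 UMIs in the Schwann cells. Thinning left out 236 and 238 of the Schwann cells and 27 and 20 of the SGCs as too shallow.

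The same Schwann cells also carried Scn9a above the other glia, at 15.5 and 22.6 CPM (79 and 134 UMIs) against 1.10 and 2.78 CPM in myelinating Schwann cells. The log2 difference from the mean of the other types was 3.85 ± 0.26 (adjusted p = 4.10e-09), with macrophages at 0 UMIs. Free RNA would give 1.15 and 1.66 CPM. The level was still well below that of neurons, by 4.69 ± 0.15 (adjusted p = 1.07e-13). Scn8a stood at 12.2 and 13.7 CPM (1.40 ± 0.17, adjusted p = 3.03e-06) and Scn3b at 23.6 CPM in both samples (0.82 ± 0.13, adjusted p = 8.58e-05). Scn10a, Scn11a, Scn1a and Scn3a had at most 6 UMIs per sample in these cells.

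Scn3b, whose product is a beta subunit without a covalent bond to the alpha subunit, was a gene of glia as well as of neurons. SGCs, which wrap the neuronal cell bodies, held 56.8 CPM (2850 UMIs) in replicate 1 and 57.5 CPM (2969 UMIs) in replicate 2, against 57.8 and 62.5 CPM in neurons. The difference of 0.07 ± 0.11 (log2, neurons minus SGCs) did not pass (adjusted p = 0.586), which does not show that the levels are equal. The sign turned with the shallow neurons alone, where the difference was -1.13 ± 0.31 (log2, neurons minus SGCs, adjusted p = 0.00842). That value rests on 14 and 6 UMIs of Scn3b in the shallow neurons of replicates 1 and 2. Against the mean of the other types, SGCs were higher by 2.28 ± 0.09 (adjusted p = 2.77e-13), and with Scn8a (0.92 ± 0.13, adjusted p = 1.16e-05, at 9.40 and 9.99 CPM) they had 2 of 9 genes called higher, beside 31.1% of all genes. The other 7 genes in SGCs were at or below 7.37 CPM.

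Among the 4 clusters of SGCs, in plain CPM, Scn3b ran from 34.8 and 36.6 in the cluster led by Dbi, over 40.8 and 42.6 in that led by Ednrb, to 60.2 and 61.5 and to 68.1 and 64.2 in the pair led by 2900052N01Rik. The clusters kept this order in both samples. Thinned to 5000 UMIs, 19.6% (678 of 3454, interval 18.3 to 20.99) and 21.4% (705 of 3300, 20.0 to 22.8) of SGCs had a UMI of Scn3b, and 45.6% and 48.8% did without thinning. In fibroblasts the thinned shares were 1.41% and 1.76%, at medians of 12711 and 13060 UMIs before thinning. Empty droplets held 41.0 and 46.6 CPM of Scn3b, from which free RNA would give SGCs 1.28 and 1.18 CPM.

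**Figure D5:**
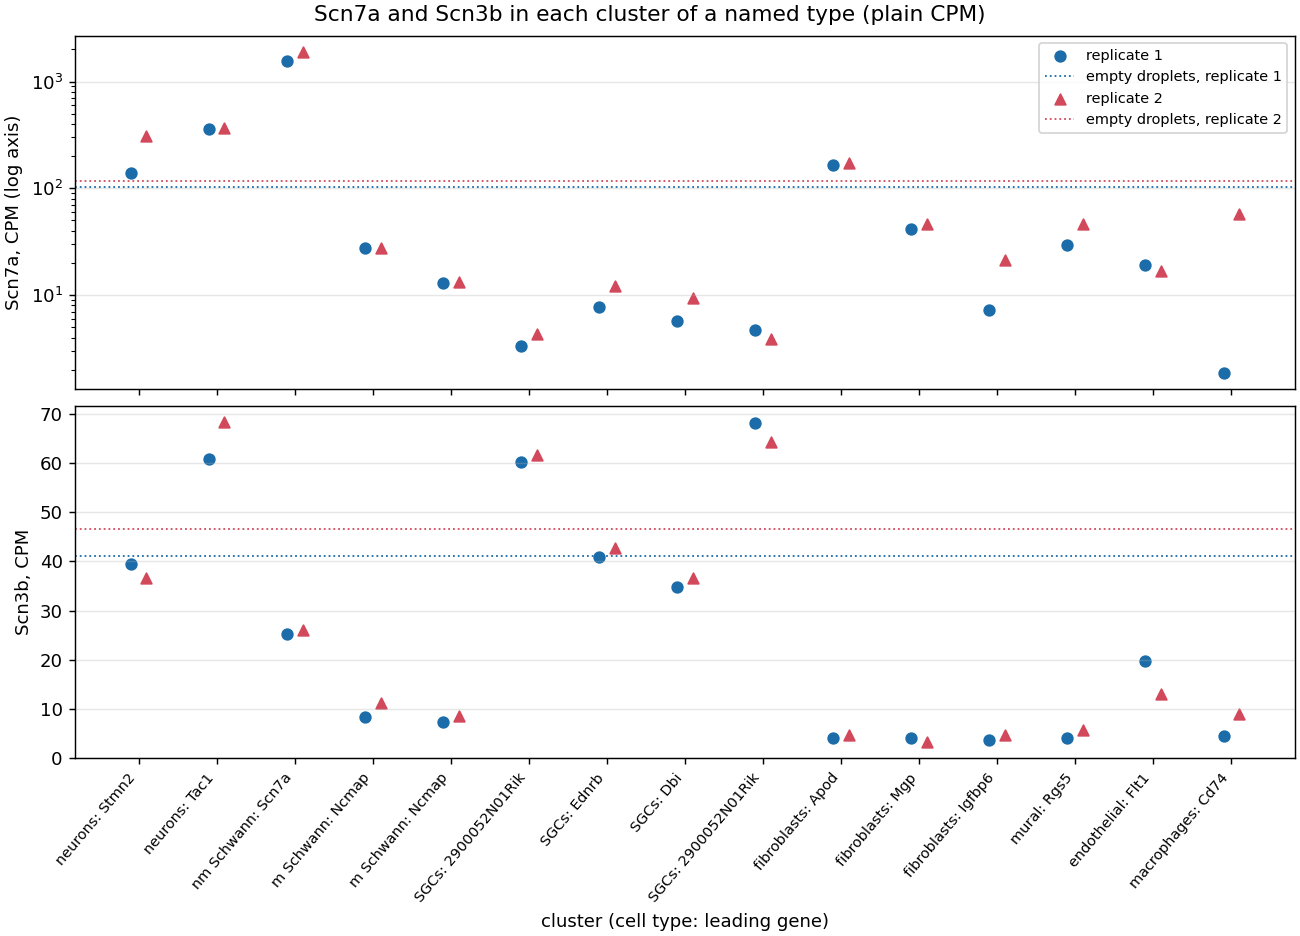
Scn7a (top, log axis) and Scn3b (bottom, linear axis) in CPM without TMM in each cluster of the 8 named types, with a circle for replicate 1 and a triangle for replicate 2, and dotted lines at the level in empty droplets. Scn7a stands at 1553 and 1882 CPM in the non-myelinating (nm) Schwann cluster, and falls from 166 and 173 to 7.26 and 21.4 CPM across the 3 fibroblast clusters.

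Mural cells, the pericytes and smooth muscle cells of vessels, were the non-neuronal type with most Scn3a and Scn2b. Scn3a stood at 41.3 and 35.6 CPM (161 and 121 UMIs) against 39.2 and 47.1 CPM in neurons, and the samples of the 2 types overlap. The difference of 0.16 ± 0.15 (log2, neurons minus mural cells) did not pass (adjusted p = 0.379). Against the mean of the other types, Scn3a was higher in mural cells by 6.13 ± 0.19 (adjusted p = 3.93e-14) and Scn2b by 3.43 ± 0.26 (adjusted p = 5.17e-09, at 12.3 and 14.1 CPM), 2 of 9 genes where 21.4% of all genes were called higher. Endothelial cells, the neighbours of mural cells in the vessel wall, held Scn3a at 9.95 and 9.81 CPM (3.89 ± 0.28, adjusted p = 3.77e-09), 1 of 9 genes beside 25.1% of all. All 36 of these UMIs in replicate 1 came from 3 of 189 cells, with 25 in a single cell, and all 39 in replicate 2 from 3 of 231 cells, with 31 in a single cell, so 3 cells in each sample set this value. In mural cells the UMIs of Scn3a came from 84 and 59 cells, with at most 7 in a cell. Free RNA would give either type at most 0.224 CPM. SGCs held 0.0797 and 0.0968 CPM of Scn3a.

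Fibroblasts had 3 of 9 genes called higher, beside 27.1% of all genes: Scn2b at 7.41 and 7.29 CPM (2.47 ± 0.25, adjusted p = 1.55e-07), Scn7a at 94.7 and 107 CPM (0.86 ± 0.27, adjusted p = 0.0137) and Scn8a at 8.09 and 9.11 CPM (0.73 ± 0.17, adjusted p = 0.00139). The call on Scn7a was lost with DESeq2 (adjusted p = 0.345). In plain CPM, Scn7a stood at 166 and 173 in the fibroblast cluster led by Apod, at 41.9 and 46.8 in that led by Mgp and at 7.26 and 21.4 in that led by Igfbp6. Myelinating Schwann cells and macrophages had 0 of 9 genes called higher, beside 26.7% and 24.8% of all genes. In macrophages the samples disagreed on Scn7a, at 2.24 CPM (5 UMIs) and 67.9 CPM (129 UMIs). In replicate 2, 122 of these UMIs came from 5 of 166 cells. Ank3, another gene of non-myelinating Schwann cells, stood at 17.5 and 99.4 CPM in macrophages of the same samples. The source of these UMIs was not tested.

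In the order of levels over the 8 types there are 63 steps between neighbours, 7 for each gene, of which 21 passed the pairwise test. Over all 28 pairs of types, 51.4% of gene tests passed in either direction, but neighbours in the order of a gene are its smallest differences, so this share is not a background for the 21. The top step passed for 7 genes and did not for Scn3a (neurons and mural cells) and Scn3b (neurons and SGCs). For Scn1a, Scn10a and Scn11a no step below neurons passed. For Scn7a the order was non-myelinating Schwann cells, neurons, fibroblasts and then mural cells, macrophages, myelinating Schwann cells and endothelial cells, among which no neighbours differed, with SGCs last. The step from neurons to fibroblasts (1.74 ± 0.35, adjusted p = 3.17e-04) did not pass with DESeq2 (adjusted p = 0.0837). Lower in the order of Scn7a, single cells weighed on the levels. The highest endothelial cell held 45 of 64 UMIs in replicate 1 and 32 of 65 in replicate 2. The highest mural cell held 15 of 113 and 44 of 153 UMIs. For Scn9a, neurons, non-myelinating Schwann cells, myelinating Schwann cells and SGCs followed each other with a difference at each step. The last of these steps is between types near the level expected from free RNA. Myelinating Schwann cells stood at 0.925 and 1.56 times that level in replicates 1 and 2, and SGCs at 1.07 and 1.08 times. The part of free RNA in this step was not tested. For Scn2b the order was neurons, mural cells, fibroblasts and the rest. For Scn8a the first step, from neurons to non-myelinating Schwann cells, was 1.47 ± 0.17 (adjusted p = 4.99e-07), and the next steps, to SGCs (adjusted p = 0.0636) and from SGCs to fibroblasts (adjusted p = 0.418), did not pass, whereas non-myelinating Schwann cells and fibroblasts differed by 0.58 ± 0.19 (adjusted p = 0.0185).

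Genes with the most similar pattern were sought by Pearson's r of log2(CPM + 1) over the 16 profiles, as a description. Profiles of the same type come from different cells but are alike in type, so the 16 profiles are not independent. For Scn7a they were Fam78b (0.911), Efcab5 (0.904) and Ntrk3 (0.874), and for Scn3a Brinp2 (0.972), Kirrel3 (0.961) and Sytl2 (0.958). For Scn3b, whose highest types are neurons and SGCs, they were Sars (0.936), Fbxw7 (0.923) and Rragb (0.921). Scn10a was most like Lingo2 (0.993), Atp2b3 (0.991) and Tlx3 (0.991), Scn11a like Nol4 (0.995), C78859 (0.994) and Gm42372 (0.993), and Scn1a like Acp7 (0.996), Vwa7 (0.994) and Gm33228 (0.994). Scn9a was most like Fam89a (0.991), Sema4f (0.991) and Krt1 (0.982), Scn8a like Usp11 (0.971), Tmsb15b2 (0.963) and Slc39a6 (0.948), and Scn2b like Susd2 (0.986), Pcolce2 (0.980) and Gm12709 (0.977).

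Partners of the channels were taken as 4 lists of 25 genes, of which 24 were tested, and 20 were higher and 1 lower in neurons, beside 36.2% and 32.5% of all genes tested, with a median log2 difference of 2.33. The count of each list is to be read against the same 36.2%. Scn4a, the channel of skeletal muscle, had 10 UMIs in all kept cells. Of the other subunits, 4 of 4 tested were higher in neurons. Scn2a stood at 58.4 and 60.5 CPM (3.94 ± 0.14, adjusted p = 3.37e-14). Scn4b was higher in neurons than in the mean of the others by 3.65 ± 0.28 (adjusted p = 1.88e-09), at 8.44 and 13.0 CPM, although mural cells held 45.6 and 37.3 CPM. Of the FGF homologous factors, which bind the tail of the alpha subunit, 3 of 4 were higher: Fgf12 by 4.41 ± 0.08, Fgf14 by 4.19 ± 0.17 and Fgf13 by 3.92 ± 0.09. Of the anchors of the initial segment and node, 6 of 8 were higher, led by Sptbn4 (5.64 ± 0.20), Ank2 (3.85 ± 0.07) and Cntnap1 (2.87 ± 0.14), and Gldn was lower, at -1.70 ± 0.43 (adjusted p = 0.00185). Of the trafficking and turnover partners, 7 of 8 were higher, among them S100a10 (2.92 ± 0.05), which carries the Scn10a product to the membrane, and Nedd4l (2.47 ± 0.06), a ubiquitin ligase of the channels.

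In non-myelinating Schwann cells 8 of the 24 were higher and 6 lower, beside 20.0% and 18.1% of all genes tested, with a median of -0.15. Ank3, which encodes the ankyrin that gathers sodium channels, was higher by 3.82 ± 0.17 (adjusted p = 6.14e-12), at 1502 and 1596 CPM, above neurons at 750 and 766 CPM. Ank2 was lower, at -2.89 ± 0.13, and Sptbn4, at -1.08 ± 0.58, did not pass (adjusted p = 0.168). Fgf13 was higher by 1.78 ± 0.11 and Fgf11 by 0.97 ± 0.28, whereas Fgf14 was lower, at -3.04 ± 0.62. Of the other subunits, Scn4b was lower, at -1.87 ± 0.72 (adjusted p = 0.0495). Of the trafficking partners, Calm2 was lower, at -0.82 ± 0.07, and Nedd4 was higher by 0.68 ± 0.06.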

How the data were processed

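Cells of L4 and L5 DRGs from naive female C57BL/6 mice of 3 months were profiled with 10x Genomics 3′ libraries in 2 samples. The deposited values are UMI counts per gene and barcode, made by the authors with Cell Ranger 7.1.0 on mm10 (matrix header and submitters' processing notes), with all barcodes kept. The annotation is not given in the sources used here. Because 3′ libraries count the transcript end, levels are compared between types, not between genes.

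Cells were called by UMI totals and by a test of each barcode above 500 UMIs against droplets ranked 45000 to 90000 (10000 simulations, false discovery rate 0.01), with over 300 genes. Of 17600, 16954 were kept. Cells above 22.5% mitochondrial UMIs were removed, as were those above 46544 UMIs unless neurons. Doublets were scored with Scrublet (scanpy 1.11.5) and left in, except a cluster with most of its cells called. Cells were clustered with Seurat 5.3.0 and sctransform 0.4.2 (3000 variable genes, 30 components, resolution 0.8), and a cluster was named where at least 3 markers stood among its 50 leading genes. Counts were summed per sample and type into 16 profiles and tested with edgeR 4.0.16 (quasi-likelihood, TMM, at least 10 counts in 2 profiles, two-sided, Benjamini-Hochberg over 17891 genes, threshold 0.05) in R 4.3.3. DESeq2 1.42.0 was an alternative. Deep neurons were clustered with scanpy (2000 variable genes without the channels and partners, 15 components, Leiden resolution 0.8). The share of free RNA in a type was the 2nd percentile of the ratio of its CPM to that of empty droplets, over genes above 100 CPM in the latter. Exact binomial intervals of shares (95%) and floors of 3 counts cover counting error only.

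Types of a sample come from 1 dissociation, so the sample number pairs profiles. Deviations of same-numbered profiles correlated between -0.04 and 0.40 over 28 pairs of types, with a median of 0.12 and 17 above 0.1. The scripts were tested on simulated data. The genes, lists and markers were chosen with earlier results of these data known. Named genes are the 9 members, up to 3 genes of each list of partners by size of change (some are not reported here), and the 3 genes most like each member. The values without the highest cell of a neuron cluster, the alternatives without the Igfbp6 fibroblast cluster, and those for types other than neurons and non-myelinating Schwann cells and for 5 pairs of types, were chosen after seeing the data.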

Additional observations from a re-analysis of the deposited data

How the results depend on the processing

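All 9 genes were higher in neurons, and the same number, 4, in non-myelinating Schwann cells, under each tested alternative: DESeq2, RLE scaling, no filter on low counts, the replicate block, other cell calling, resolutions of 0.4 and 1.2, no called doublets, free RNA subtracted, the UMI cutoff on neurons, neurons above or at or below 20000 UMIs only, and no Igfbp6 fibroblast cluster. With the replicate block, 6479 of all genes were higher in neurons against 6478 without it, and the block changed no call of the 9 genes there or in non-myelinating Schwann cells. The sizes of the differences in neurons moved more: over the tested alternatives Scn1a ran from 8.05 to 10.36 (log2), Scn3a from 5.36 to 7.79, Scn7a from 2.43 to 3.44, Scn9a from 8.73 to 12.76, Scn10a from 7.91 to 13.56, Scn11a from 7.95 to 13.01, Scn2b from 5.17 to 8.0 and Scn3b from 1.16 to 2.85, and the highest values of all but Scn7a and Scn3b came with free RNA subtracted. Without replicate 2 Scn2b was at 6.35 and Scn7a at 3.51, and without either replicate Scn1a, Scn10a and Scn11a were at 9.12 to 9.58. All genes higher in neurons fell to 3248 of 17469 with the UMI cutoff on neurons and to 2758 of 17439 with only neurons at or below 20000 UMIs. All genes higher in non-myelinating Schwann cells ran from 3223 of 17891 with DESeq2 to 3855 of 17850 with no called doublets, and were 3606 of 25699 with no filter on low counts. The difference of Scn7a between non-myelinating Schwann cells and neurons was 2.13 to 2.64 (largest adjusted p = 0.0363), and 2.10 to 2.30 without 1 replicate, which leaves 1 profile per type and no test. Scn7a lost its call with DESeq2 in fibroblasts (0.84) and between neurons and fibroblasts (1.79, adjusted p = 0.0837). The difference of Scn3a between neurons and mural cells turned to -0.51 with only the shallow neurons and ran from -0.073 to 0.45 without 1 replicate. That of Scn3b between neurons and SGCs turned to -0.15 at resolution 0.4, -0.51 with the UMI cutoff and -1.13 with only the shallow neurons. Between deep and shallow neurons, 2 genes were called when the division was at 10000 UMIs (Scn9a at 0.87 joined Scn3b) and 0 with free RNA subtracted. Of all genes tested, 968 of 17885 and 264 of 17817 were called in these 2 settings, in either direction. At 10000 UMIs, Scn8a (0.91), Scn10a (0.43) and Scn2b (-0.036) changed sign without passing. Without thinning and with thinning to 2000 UMIs, the share with Scn9a in neurons was 31.1% and 52.8% in replicate 1 and 58.1% and 62.0% in replicate 2. That of Scn3b in SGCs was 45.6% and 9.23%, and 48.8% and 10.1%. That of Scn7a in non-myelinating Schwann cells was 79.6% and 85.1% without thinning. Thinning leaves out cells with fewer UMIs than its depth, so shares with and without it are over different sets of cells. The causes were not tested. Tests of the neuron clusters with the replicate block and with DESeq2 were not run, because no cluster had 10 cells in each sample.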

Other observations

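Clusters outside the 8 types also held some of the genes, given here in CPM without TMM and with no test. A cluster led by Pou3f1, with markers of SGCs and Schwann cells but too few of either to be named, had 824 and 764 cells in replicates 1 and 2 and held Scn3b at 17.6 and 20.7 CPM and Scn8a at 4.32 and 6.22 CPM. A cluster with markers of myelinating Schwann cells, most of whose cells were called doublets, held Scn3b at 30.2 and 46.9 CPM. A cluster led by Lyz2 held Scn7a at 44.9 and 50.1 CPM, with 15 and 38 UMIs, below the 103 and 116 CPM of empty droplets.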
